A study of Mus musculus with 2 samples.

Results

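Bone marrow natural killer (NK) cells of fasted mice were set against those of mice fed ad libitum. They were taken from a single-cell RNA sequencing lane with unique molecular identifiers (UMIs) that held 13118 cells, of which the authors' hashtag classification gave 7479 to a single population. The singlets whose hashtag the deposited tag list names as bone marrow fasted or bone marrow ad libitum numbered 711, namely 136 fasted and 575 ad libitum cells. The C57BL/6 mice of these populations were 12 weeks old and carried subcutaneous tumours of MC38, a mouse colon carcinoma line, and the fasted mice belonged to the cyclic fasting arm. Cells without lineage markers that carried NK1.1 and CD49b were sorted after red cell lysis, marked with hashtag antibodies and pooled in 1 lane. Refed bone marrow and fasted and ad libitum spleen populations of tumour-bearing mice in the same lane are drawn on for their levels. How many mice stood behind a hashtag, and how long the fast lasted, the labels do not say. With 1 hashtag a population, each was treated as 1 sample, so differences between them could not be set against a spread between animals and none was given a p-value.

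NK cells are innate lymphocytes that kill infected and transformed cells without prior sensitisation. They develop in the bone marrow, where precursors and immature cells depend on interleukin-15, divide, and then acquire granzymes, receptors of the Ly49 and NKG2 families and the means to leave for blood and spleen. Fasting is known to raise glucocorticoids and to lower insulin and growth factor signalling, and FOXO transcription factors and KLF2 are known to keep lymphocytes at rest.

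Before the comparison, 2 fasted and 24 ad libitum cells that carried markers of another lineage were left out, which left 134 fasted and 551 ad libitum cells. All 16 NK markers were detected in both, summing to 29593 counts per 1000000 UMIs (CPM) in fasted and 27449 CPM in ad libitum cells. The summed UMIs were 707101 in fasted and 4960953 in ad libitum cells, and the median per cell was 4765.5 in fasted and 7036 in ad libitum cells. Genes that collect ribosomal RNA reads (Gm42418, AY036118 and Lars2) held 2.80% of fasted and 1.85% of ad libitum UMIs, and mitochondrial genes held 4.46% of fasted and 4.20% of ad libitum UMIs. T cell markers summed to 477 CPM in fasted and 321 CPM in ad libitum cells, carried mainly by Cd3d and Cd3g. Cd3e had 45.3 CPM in fasted and 31.4 CPM in ad libitum cells, and Trac had 38.2 CPM in fasted and 22.6 CPM in ad libitum cells. Cd6 and Trat1 were at 0 in fasted cells, with 1.01 and 0.60 CPM in ad libitum cells. The coreceptor genes Cd4, Cd8a and Cd8b1 were at 0 in both populations. Whether T cells were present among these cells was not tested. At least 3 T cell markers were found in 18 of 134 fasted and 61 of 551 ad libitum cells. Neutrophil markers summed to 56.6 CPM in fasted and 67.1 CPM in ad libitum cells. Markers listed for group 1 innate lymphoid cells summed to 792 CPM in fasted and 373 CPM in ad libitum cells. That sum contains Il7r, Ltb and Cd3g, the last of which is also on the T cell list. Of the other markers listed for innate lymphoid cells of group 1, Tmem176b had 29.7 CPM in fasted and 6.05 CPM in ad libitum cells. Itga1 had 1.41 CPM in fasted and 1.61 CPM in ad libitum cells, and Cxcr6 had 2.83 CPM in fasted and 2.22 CPM in ad libitum cells. These fasted levels rest on 1 UMI for Itga1 and 2 UMIs for Cxcr6, too few to compare.

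Across the genes, fasted bone marrow NK cells had higher RNA of genes listed for the glucocorticoid response and for FOXO, KLF2 and quiescence. They had lower RNA of genes listed for DNA replication and mitosis. These lists were chosen with earlier results of these data known, and the 2 higher ones share Il7r and Pik3ip1. Levels are CPM of the UMIs summed over each population, differences are log2 ratios of CPM + 5 for fasted over ad libitum, and a gene was called when it passed 2-fold. Of the 2852 genes that reached 50 CPM in fasted or ad libitum cells, 32 (1.12%) were at least 2-fold higher and 95 (3.33%) at least 2-fold lower in fasted cells. A gene that reached 50 CPM in 1 population only could be called only as higher in that population. The median log2 ratio of all 2852 genes was -0.06. The higher calls, 25.2% of the total, made up 47.7% with equal cluster weights, 44.9% when every cell weighed the same, 43.1% with thinned cells, 35.9% with totals without ribosomal protein and mitochondrial genes and 15% without each gene's highest cell. Each log2 ratio is followed by its 95% interval from the binomial distribution of the counts, which covers counting error only and neither the spread between mice nor that between cells.

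**Figure D1:**
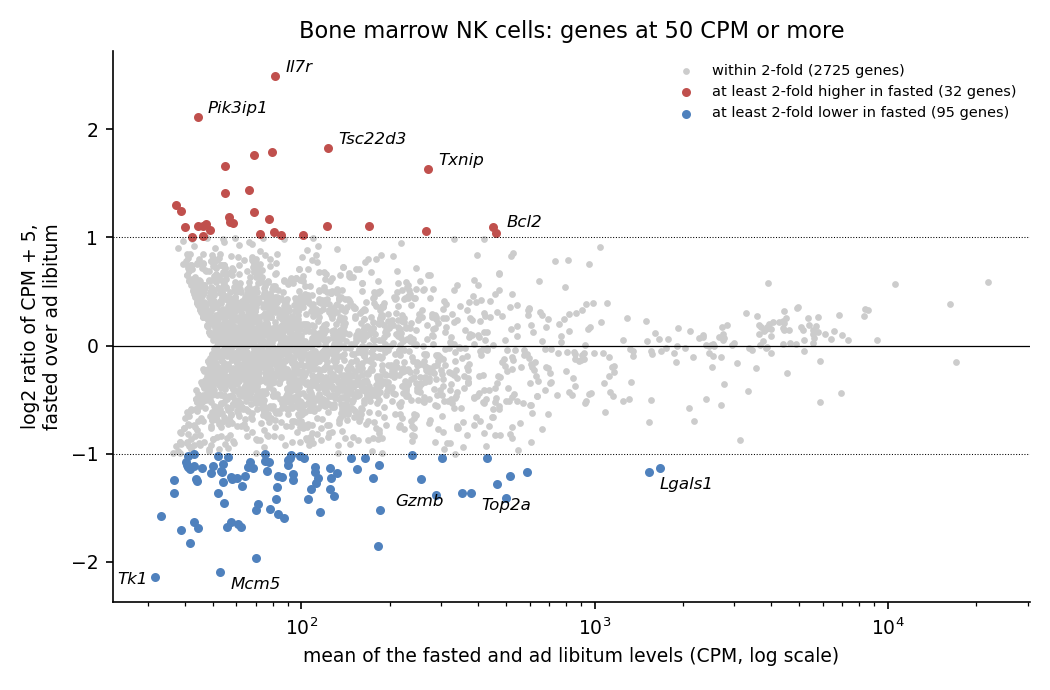
Log2 ratio of CPM + 5 (fasted over ad libitum, vertical axis) against the mean level of both populations (CPM, log scale) for the 2852 genes, 1 point a gene, with dotted lines at 2-fold. The 32 genes above the upper line are led by Il7r at 2.50, and the 95 below the lower line end with Tk1 at -2.14.

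The highest gene of all was Il7r, which encodes the receptor chain for interleukin-7, a survival cytokine of lymphocytes and of early NK stages. It had 141 CPM (115 to 172) in fasted and 20.96 CPM (17.1 to 25.4) in ad libitum cells, a log2 ratio of 2.50 (2.13 to 2.86). The counting intervals of both levels lay far apart. Without the cells that carried at least 3 T cell markers the log2 ratio was 2.78, and with equal weight for each of the authors' clusters it was 1.83. After thinning of each cell to 1500 UMIs, 16.7% of fasted and 3.77% of ad libitum cells held an Il7r UMI, against 6.15% of the lane's cells with monocyte or macrophage markers, which serve as a background. The ad libitum share was not above the background, and the interval of the fasted share, 10.3 to 24.8%, overlapped that of the background, 1.70 to 15.01%. Before thinning, 32 of 134 fasted and 48 of 551 ad libitum cells held one, at median depths of 4765.5 and 7036 UMIs, and 9 of 77 background cells at 9285 UMIs.

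Genes of the glucocorticoid response formed the list with the highest median. Of its 23 genes in the matrix 12 reached the minimum level, and of these 7 (58.3%, beside 1.12% of all genes) were at least 2-fold higher in fasted cells and 0 at least 2-fold lower, and the median log2 ratio was 1.09 (0.70 to 1.47, the medians of the members' bounds). Of the 7, Il7r, Pik3ip1, Fkbp5 and Ddit4 reached 50 CPM in fasted cells only, so they were tested only because of their fasted level. With no minimum level the list's median was 0.54. The list was chosen with earlier results of these data known. Tsc22d3, which encodes the glucocorticoid-induced leucine zipper, a mediator of anti-inflammatory effects of the hormone, had 195 CPM in fasted and 51.4 CPM in ad libitum cells (log2 ratio 1.83, 1.53 to 2.12). Fkbp5, a co-chaperone of the receptor that the hormone induces, had 82.0 CPM in fasted and 34.7 CPM in ad libitum cells (1.13, 0.71 to 1.54). Ddit4, which encodes the mTORC1 inhibitor REDD1, had 55.2 CPM in fasted and 19.4 CPM in ad libitum cells (1.30, 0.80 to 1.79). Of these genes, the level of each in refed bone marrow was nearer to the ad libitum than to the fasted level, with 44.1 CPM for Tsc22d3, 33.1 CPM for Fkbp5 and 17.1 CPM for Ddit4. The receptor gene Nr3c1 itself had 60.8 CPM in fasted and 63.5 CPM in ad libitum cells (-0.06, -0.51 to 0.37). The list's members under 2-fold with intervals above 0 were Nfkbia, the NF-kappaB inhibitor (0.54), and Tgfbr2, a receptor for TGF-beta (0.70).

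Pik3ip1, an inhibitor of phosphoinositide 3-kinase, and Txnip, an inhibitor of glucose uptake and of thioredoxin, were also among the highest genes. Pik3ip1 had 74.95 CPM in fasted and 13.5 CPM in ad libitum cells (log2 ratio 2.11, 1.64 to 2.56). Its thinned share was 9.65% of fasted and 1.88% of ad libitum cells, against 1.54% of the background cells. Txnip had 412 CPM in fasted and 129 CPM in ad libitum cells (1.64, 1.44 to 1.83). Both are members of the glucocorticoid list here, as are Il7r and the homing gene Cxcr4. Pik3ip1 is also in the FOXO list, and Il7r is also in the FOXO, cytokine receptor and immature NK lists. The lists are therefore not independent of each other. Cpt1a, the carnitine palmitoyltransferase that brings fatty acids into mitochondria, stayed under the minimum level, with 41.0 CPM in fasted and 8.67 CPM in ad libitum cells (1.75, 1.17 to 2.30).

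The promoters of Txnip and Tsc22d3 are shown because both genes are among the highest and a motif of a factor named above lies in them. The window runs from 250 bases before to 50 bases after the annotated start, in RefSeq on GRCm38.p6, 5′ to 3′ on the gene's strand. For Txnip it is chr3:96557707-96558006 on the plus strand with the FOXO motif GTAAACA in capitals, and for Tsc22d3 it is chrX:140600473-140600772 on the minus strand with the glucocorticoid receptor half-site AGAACA, here read on the other strand, in capitals. Tsc22d3 has further annotated starts whose windows hold no half-site.
Txnip: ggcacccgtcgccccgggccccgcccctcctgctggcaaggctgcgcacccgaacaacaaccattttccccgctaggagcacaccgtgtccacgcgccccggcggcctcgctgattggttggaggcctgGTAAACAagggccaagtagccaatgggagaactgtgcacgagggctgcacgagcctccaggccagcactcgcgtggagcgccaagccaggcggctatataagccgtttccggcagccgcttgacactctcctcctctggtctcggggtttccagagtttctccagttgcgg
Tsc22d3: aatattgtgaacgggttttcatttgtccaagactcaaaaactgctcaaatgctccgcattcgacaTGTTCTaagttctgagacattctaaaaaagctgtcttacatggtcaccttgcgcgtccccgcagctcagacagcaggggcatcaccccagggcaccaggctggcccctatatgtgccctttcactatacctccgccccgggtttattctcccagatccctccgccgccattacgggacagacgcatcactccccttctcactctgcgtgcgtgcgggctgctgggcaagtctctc
Of the 15 highest genes, 13 matched the promoter table, and 3 of them held GTAAACA on either strand (23.1%), against 2.95% of the 2239 tested genes with a promoter and 4.05% of all 27025 genes in the table. The half-site AGAACA lay in 4 of the 13 (30.8%), against 14.0% of the tested genes and 21.3% of all genes. Over the 11 matched members of the glucocorticoid list the half-site was in 2 (18.2%). A match describes these letters and does not show a bound factor.

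Genes of FOXO, KLF2 and quiescence were above 0 in the 18 of 31 that reached the minimum level, with a median of 0.50 (0.19 to 0.84). Of these, 3 (16.7%, beside 1.12% of all genes) were at least 2-fold higher, namely Il7r, Pik3ip1 and Zfp36l2. At least 2-fold lower were 0, beside 3.33% of all genes. Il7r and Pik3ip1 reached 50 CPM in fasted cells only. Zfp36l2, an RNA-binding protein that promotes the decay of messages of dividing cells, had 614 CPM in fasted and 285 CPM in ad libitum cells (log2 ratio 1.10, 0.94 to 1.25). The antiproliferative gene Btg1 had 1201 CPM in fasted and 711 CPM in ad libitum cells (0.75, 0.64 to 0.86), and Cdkn1b, which encodes the cell cycle inhibitor p27, had 105 CPM in fasted and 59.7 CPM in ad libitum cells (0.76, 0.40 to 1.12). Klf2 itself lay at 450 CPM in fasted and 412 CPM in ad libitum cells (0.12, -0.05 to 0.29). With the same weight for every cell the list median was 0.21 and the log2 ratio of Btg1 was 0.28. After thinning, the log2 ratio was 0.09 for Btg1 and -0.16 for Cdkn1b.

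Among receptors and signalling genes of cytokines a few passed 2-fold. Of 41 members 21 reached the minimum level, and 20 of these lay above 0, as did 45.3% of all genes. At least 2-fold higher were 3 (14.3%, beside 1.12% of all genes), namely Il7r, Bcl2 and Bcl2l11. Of these, Il7r reached 50 CPM in fasted cells only, and Bcl2 (0.60) and Bcl2l11 (0.83) lay under 2-fold with thinned cells. At least 2-fold lower were 0, beside 3.33% of all genes, and the median was 0.59 (0.24 to 0.92). Ifngr1, a chain of the interferon-gamma receptor, had 677 CPM in fasted and 372 CPM in ad libitum cells (log2 ratio 0.85, 0.71 to 1.00). The interleukin-18 receptor genes Il18r1 (0.69, 0.46 to 0.92) and Il18rap (0.80, 0.55 to 1.05) were higher by less than 2-fold. Il2rb, the receptor chain shared by interleukin-2 and interleukin-15, had 450 CPM in fasted and 340 CPM in ad libitum cells (0.40, 0.22 to 0.57).

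Among genes of apoptosis, both protective and death-promoting members were higher, and 3 of 10 tested (30%, beside 1.12% of all genes) were at least 2-fold higher. Of the 3, Bcl2 and Bcl2l11 are also calls of the cytokine receptor list, so the lists are not independent. The third, Bbc3, reached 50 CPM in fasted cells only. Bcl2, which protects cells from death, had 621 CPM in fasted and 300 CPM in ad libitum cells (log2 ratio 1.04, 0.88 to 1.19). Bbc3, which encodes the death-promoting PUMA, had 86.3 CPM in fasted and 23.8 CPM in ad libitum cells (1.66, 1.24 to 2.08), and Bcl2l11, which encodes the death-promoting BIM, had 116 CPM in fasted and 54.6 CPM in ad libitum cells (1.02, 0.67 to 1.36). With thinned cells Bcl2 lay at 0.60 and Bcl2l11 at 0.83, both under 2-fold, and Bbc3 at 1.49. With equal cluster weights Bcl2 lay at 0.77 and Bcl2l11 at 1.21. Bax, an effector of the same pathway, was lower by less than 2-fold (-0.38, -0.71 to -0.06). Refed cells had 322 CPM of Bcl2, 22.1 CPM of Bbc3 and 54.9 CPM of Bcl2l11, near the ad libitum levels.

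**Figure D2:**
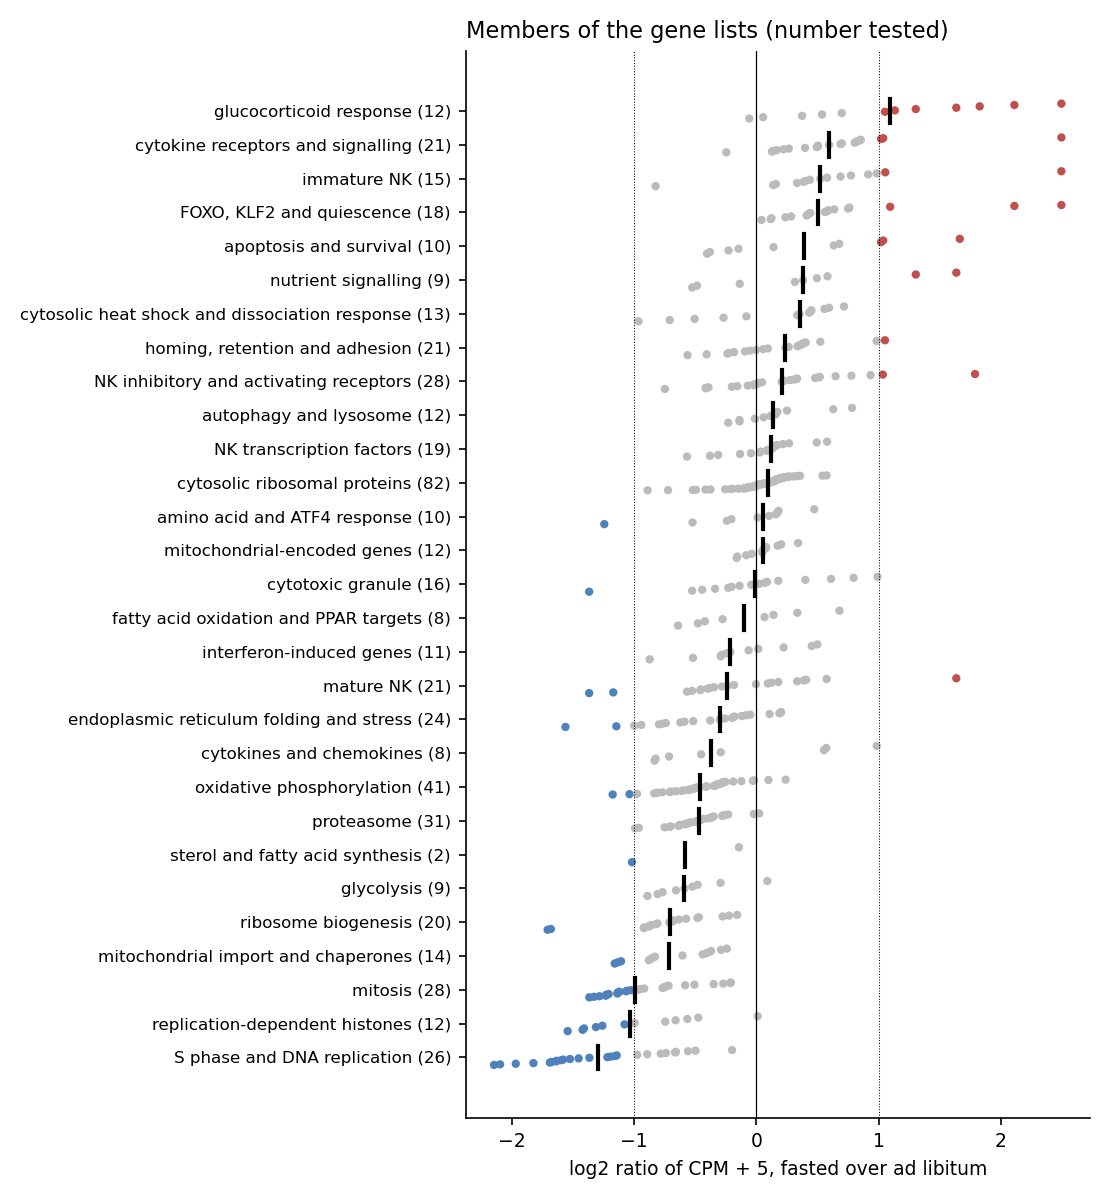
Log2 ratio (fasted over ad libitum, horizontal axis) of each tested member of the 29 gene lists, with the number tested in brackets, red from 2-fold higher, blue from 2-fold lower, and a black bar at the list's median. Medians run from -1.29 for S phase and DNA replication to 1.09 for the glucocorticoid response.

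DNA replication genes formed the list with the lowest median. Of 50 members 26 reached the minimum level, these 26 lay below 0, 17 (65.4%, beside 3.33% of all genes) were at least 2-fold lower in fasted cells and 0 at least 2-fold higher, and the median was -1.29 (-1.83 to -0.76). That median was -0.70 when every cell weighed the same, -0.74 with thinned cells and -0.69 with equal cluster weights, each under 2-fold. With no minimum level the S phase median was -1.27. Tk1, thymidine kinase, had 8.49 CPM in fasted and 54.6 CPM in ad libitum cells (log2 ratio -2.14, -2.89 to -1.33). Mcm5, a subunit of the replicative helicase, had 17.0 CPM in fasted and 88.9 CPM in ad libitum cells (-2.10, -2.78 to -1.42). Rrm2, the regulated subunit of ribonucleotide reductase, had 25.5 CPM in fasted and 114 CPM in ad libitum cells (-1.97, -2.58 to -1.38). These fasted levels rest on 6, 12 and 18 UMIs for Tk1, Mcm5 and Rrm2. The same genes reached 50 CPM in ad libitum cells only, so they were tested only because of their ad libitum level. Helicase subunits further down were less far apart, such as Mcm7 (-1.22) and Mcm4 (-1.14), and Pcna, the sliding clamp, lay under 2-fold (-0.89, -1.31 to -0.49). With cells thinned to 1500 UMIs the log2 ratio of Mcm5 was -0.42, and thinned Mcm5 shares were 5.26% of fasted and 7.34% of ad libitum cells, with overlapping intervals.

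The lowest genes also held members of other steps of replication. Hells, a chromatin remodeller of dividing cells, had 15.6 CPM in fasted and 67.7 CPM in ad libitum cells (log2 ratio -1.82, -2.53 to -1.13), and Lig1, the ligase that joins Okazaki fragments, had 41.0 CPM in fasted and 134 CPM in ad libitum cells (-1.60, -2.11 to -1.11). Tyms, thymidylate synthase, lay at -1.67, but at -0.39 with the same weight per cell. The clamp loader genes Rfc4 and Rfc5 lay at -1.69 and -1.58, the histone chaperone gene Asf1b at -1.63, and Tipin, of the fork protection complex, at -1.64. Each gene of this paragraph reached 50 CPM in ad libitum cells only.

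Promoters of Mcm5, Hells and Lig1 are shown because these genes, 3 of the 12 with a promoter among the 15 lowest, hold an E2F motif, the binding letters of the factors that drive S phase genes. The motif letters searched on both strands were TTTCGCGC, TTTGGCGC and TTTCCCGC, and matches are in capitals. The windows, from RefSeq on GRCm38.p6 and on the plus strand, are chr8:75109259-75109558 for Mcm5, with 2 overlapping matches, chr19:38930740-38931039 for Hells, and chr7:13278576-13278875 for 1 of several annotated starts of Lig1.
Mcm5: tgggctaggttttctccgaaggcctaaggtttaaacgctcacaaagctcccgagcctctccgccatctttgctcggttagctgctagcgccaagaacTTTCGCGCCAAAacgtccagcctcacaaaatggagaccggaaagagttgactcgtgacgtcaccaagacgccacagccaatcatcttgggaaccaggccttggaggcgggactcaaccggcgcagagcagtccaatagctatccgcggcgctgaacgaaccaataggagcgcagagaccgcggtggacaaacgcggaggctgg
Hells: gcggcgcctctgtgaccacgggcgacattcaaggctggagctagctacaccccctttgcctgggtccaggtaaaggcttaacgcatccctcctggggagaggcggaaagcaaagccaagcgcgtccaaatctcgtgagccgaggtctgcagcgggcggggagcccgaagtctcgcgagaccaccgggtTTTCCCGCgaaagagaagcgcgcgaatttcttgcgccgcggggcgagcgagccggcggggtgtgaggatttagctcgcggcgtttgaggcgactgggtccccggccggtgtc
Lig1: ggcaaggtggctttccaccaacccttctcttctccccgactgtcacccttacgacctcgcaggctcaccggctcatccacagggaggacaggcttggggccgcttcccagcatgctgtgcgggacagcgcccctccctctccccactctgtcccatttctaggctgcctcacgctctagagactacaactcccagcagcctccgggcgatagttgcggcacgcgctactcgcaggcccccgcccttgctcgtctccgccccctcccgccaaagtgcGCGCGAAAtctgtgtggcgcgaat
Of the 70 genes at least 2-fold lower that matched the promoter table, 16 held an E2F motif (22.9%), as did 8 of 23 matched members of the S phase list (34.8%) and 1 of 24 of the mitosis list (4.17%). The share was 5.31% of the 2239 tested genes with a promoter and 2.12% of all genes in the table. None of the 26 matched genes that were at least 2-fold higher held these letters.

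Mitosis genes were lower too. Of 45 members 28 reached the minimum level, and these 28 lay below 0, with a median of -0.99 (-1.45 to -0.52). At least 2-fold lower were 14 (50%, beside 3.33% of all genes), and 0 were at least 2-fold higher. Top2a, the topoisomerase of dividing cells, had 209 CPM in fasted and 547 CPM in ad libitum cells (log2 ratio -1.37, -1.61 to -1.13). Mki67, which encodes the proliferation antigen Ki-67, had 151 CPM in fasted and 362 CPM in ad libitum cells (-1.23, -1.52 to -0.96). Its thinned share was 6.14% of fasted and 18.8% of ad libitum cells, and 6.15% of the cells with monocyte or macrophage markers. After thinning, at least 3 mitosis genes were found in 36.9% of those marker cells, 29.8% of fasted and 47.6% of ad libitum cells. The marker cells are therefore no measure of background for Mki67. Of the replication-dependent histone genes, 6 of 12 tested (50%, beside 3.33% of all genes) were at least 2-fold lower. Hist1h2ae led them with 56.6 CPM in fasted and 174 CPM in ad libitum cells (-1.54, -1.99 to -1.12). The histone genes are a family of near-identical genes whose reads the counting could split. Equal cluster weights left a median of -0.082 for mitosis and -0.17 for the histone genes. Leaving out the 5% of cells with most UMIs gave -1.88 for mitosis.

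Few biosynthesis genes passed 2-fold, while most lay below 0, as did 54.7% of all genes. Ribosome biogenesis had all 20 tested members below 0 and a median of -0.71 (-1.18 to -0.33). It had 2 members at least 2-fold lower, a count too small to set apart from the 3.33% of all genes. The 2 called were Srm, spermidine synthase (15.6 CPM in fasted and 62.1 CPM in ad libitum cells), and the nucleolar gene Lyar (26.9 CPM in fasted and 97.2 CPM in ad libitum cells), while the abundant nucleolar genes Ncl (-0.63) and Npm1 (-0.47) lay under 2-fold. The cytosolic ribosomal proteins went the other way by a small amount, with a median of 0.10 over 82 genes, and this median turned to -0.02 with equal cluster weights. Genes of mitochondrial import and chaperones were below 0 in 14 of 14, with a median of -0.72. At least 2-fold lower were 3 (21.4%, beside 3.33% of all genes), among them Hspd1, the mitochondrial chaperonin (115 CPM in fasted and 252 CPM in ad libitum cells). Nuclear-encoded oxidative phosphorylation genes were below 0 in 39 of 41 and at least 2-fold lower in 2 of 41, near the 3.33% of all genes, with a median of -0.46 (-0.71 to -0.17). Glycolysis was below 0 in 8 of 9 and at least 2-fold lower in 0, with a median of -0.59, and Gapdh had 424 CPM in fasted and 791 CPM in ad libitum cells (-0.89, -1.06 to -0.72). Gapdh lay at -0.29 with thinned cells and at -0.60 with equal cluster weights. Proteasome subunits were below 0 in 30 of 31, with 0 at least 2-fold lower and a median of -0.47.

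Protein folding and the amino acid response were not uniform. In the endoplasmic reticulum list 2 of 24 tested members were at least 2-fold lower, a count too small to set apart from the 3.33% of all genes, and the median was -0.30 (-0.67 to 0.03). The low end held Sdf2l1, a partner of the chaperone BiP, with 39.6 CPM in fasted and 127 CPM in ad libitum cells (log2 ratio -1.56), and the disulfide isomerase gene Pdia6 (-1.14), while the stress regulator Xbp1 lay at 0.20 (-0.27 to 0.65). In the ATF4 list 1 of 10 tested members was at least 2-fold lower, likewise too few to set apart, and the median was 0.06 (-0.31 to 0.35). That member was Phgdh, the first enzyme of serine synthesis, with 53.7 CPM in fasted and 134 CPM in ad libitum cells (-1.24, -1.71 to -0.80). The amino acid transporter gene Slc38a2 had 535 CPM in fasted and 383 CPM in ad libitum cells (0.47, 0.31 to 0.63), and Atf4 itself 115 CPM in fasted and 114 CPM in ad libitum cells.

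Effector genes differed gene by gene. The cytotoxic granule list had a median of -0.01 over 16 tested members, with 1 at least 2-fold lower and 0 at least 2-fold higher, counts too small to set apart from the 3.33% and 1.12% of all genes. Gzmb, granzyme B, had 195 CPM in fasted and 511 CPM in ad libitum cells (log2 ratio -1.37, -1.62 to -1.12). Thinned, 21.9% of fasted and 45.6% of ad libitum cells held a Gzmb UMI, and the fasted share lay within the interval of the background cells, 11.1 to 31.8%. Gzma, the most abundant granzyme here, had 4817 CPM in fasted and 6930.1 CPM in ad libitum cells (-0.52, -0.58 to -0.47), and Prf1, perforin, had 84.9 CPM in fasted and 117 CPM in ad libitum cells (-0.44, -0.83 to -0.08). Rab27a, which docks granules at the membrane, had 65.1 CPM in fasted and 30.2 CPM in ad libitum cells (0.99, 0.53 to 1.43). Refed cells had 318 CPM of Gzmb, between the other 2 populations.

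Of the 8 tested cytokine and chemokine genes, 0 passed 2-fold, too few genes to set apart from the 1.12% and 3.33% of all genes. Ifng, interferon-gamma, had 56.6 CPM in fasted and 105 CPM in ad libitum cells (log2 ratio -0.83, -1.29 to -0.40). Xcl1, a chemokine for cross-presenting dendritic cells, had 342 CPM in fasted and 610 CPM in ad libitum cells (-0.82, -1.02 to -0.64), and 782 CPM in refed cells. The inflammatory chemokine gene Ccl4 had 205 CPM in fasted and 339 CPM in ad libitum cells (-0.71), and -1.14 without the cell with most Ccl4 UMIs in each population. Ccl5 went the other way, with 12659 CPM in fasted and 8508 CPM in ad libitum cells (0.57, 0.54 to 0.61), but at 0.12 with the same weight per cell. Ltb, lymphotoxin beta, had 443 CPM in fasted and 221 CPM in ad libitum cells (0.99, 0.80 to 1.17), and 1.26 without cells that carried at least 3 T cell markers. Cxcl10, an interferon-induced chemokine outside that list, had 98.996 CPM in fasted and 33.5 CPM in ad libitum cells (1.44), but 91.4% of its fasted UMIs came from 1 cell, and the log2 ratio was -1.07 without the highest cell of each population.

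Receptors that recognise target cells showed small differences. Of 28 tested, 2 (7.14%, beside 1.12% of all genes) were at least 2-fold higher and 0 (beside 3.33%) at least 2-fold lower. The 2, Slamf6 and Klrb1b, reached 50 CPM in fasted cells only, so they were tested only because of their fasted level. The median was 0.21 (-0.07 to 0.38). Slamf6, a self-ligand receptor that tunes NK activation, had 126 CPM in fasted and 32.9 CPM in ad libitum cells (log2 ratio 1.79, 1.43 to 2.14). The other was Klrb1b, an inhibitory receptor of the NKR-P1 family (98.996 CPM in fasted and 45.8 CPM in ad libitum cells, 1.03, 0.65 to 1.40), and the sort marker NK1.1, encoded by Klrb1c, lay at 0.48 (0.33 to 0.63). Klrk1, which encodes NKG2D, had 1007 CPM in fasted and 800.2 CPM in ad libitum cells (0.33), and its adaptor gene Hcst 928 CPM in fasted and 539 CPM in ad libitum cells (0.78, 0.65 to 0.90). Fcgr3, the antibody receptor CD16, lay at 0.94 (0.54 to 1.32). Ncr1, which encodes NKp46, had 583 CPM in fasted and 777 CPM in ad libitum cells (-0.41, -0.56 to -0.27), and Slamf7 lay lowest at -0.75 (-1.26 to -0.26). The Ly49 genes tested spanned -0.41 for Klra3 to 0.28 for Klra8. The Klra, Klrb1 and Klrc genes are families of close copies whose reads the counting could split.

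Of 15 tested immature NK genes, 14 lay above 0, beside 45.3% of all genes, 2 were at least 2-fold higher (Il7r and Emb, beside 1.12% of all genes) and 0 at least 2-fold lower, with a median of 0.52 (0.23 to 0.81). Cd27, a costimulatory receptor lost on late NK cells, had 209 CPM in fasted and 120 CPM in ad libitum cells (log2 ratio 0.77, 0.51 to 1.03). Ctla2a, a cysteine protease inhibitor, had 1369 CPM in fasted and 723 CPM in ad libitum cells (0.92, 0.81 to 1.02). Xcl1, also on this list, was the member below 0. The 21 tested mature NK genes had a median of -0.24 (-0.47 to 0.05), with 2 at least 2-fold lower, Gzmb and Lgals1, and 1 at least 2-fold higher, Txnip. These counts are too small to set apart from the 3.33% and 1.12% of all genes. Lgals1, galectin-1, had 945 CPM in fasted and 2131 CPM in ad libitum cells (-1.17, -1.28 to -1.06). Klrg1, a receptor that marks late NK stages, was under the minimum level, with 9.90 CPM in fasted and 38.3 CPM in ad libitum cells (-1.54, -2.29 to -0.74), from 7 UMIs in fasted and 190 UMIs in ad libitum cells. The late integrin gene Itgam had 53.7 CPM in fasted and 39.9 CPM in ad libitum cells (0.39, -0.10 to 0.85). Ly6c2, another late marker, lay at 0.58 (0.34 to 0.80).

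Transcription factors of the NK lineage were close. None of 19 tested passed 2-fold in either direction, against backgrounds of 1.12% and 3.33% of all genes, and the median was 0.12. Eomes and Tbx21, the T-box factors that set NK identity and maturation, had log2 ratios of 0.14 (-0.11 to 0.37) and 0.03 (-0.37 to 0.42). The ends of the list were Irf8 (-0.57, -0.85 to -0.29), a factor of NK maturation, and Tcf7 (0.58, 0.19 to 0.95), which encodes TCF-1 of early stages.

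Homing genes had 1 of 21 tested members at least 2-fold higher and 0 at least 2-fold lower, too few to set apart from the 1.12% and 3.33% of all genes. That was Cxcr4, the receptor for the marrow chemokine CXCL12, with 110 CPM in fasted and 50.6 CPM in ad libitum cells (log2 ratio 1.05, 0.69 to 1.40). Cd44, a receptor for hyaluronan, had 117 CPM in fasted and 56.8 CPM in ad libitum cells (0.98, 0.63 to 1.33). The chemokine receptor gene Ccr2 lay at 0.27 (0.10 to 0.43), and the sphingosine-1-phosphate receptor gene S1pr4 at 0.34 (-0.03 to 0.69). Itgb7, a homing integrin chain, was lowest at -0.56 (-0.89 to -0.24).

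**Figure D3:**
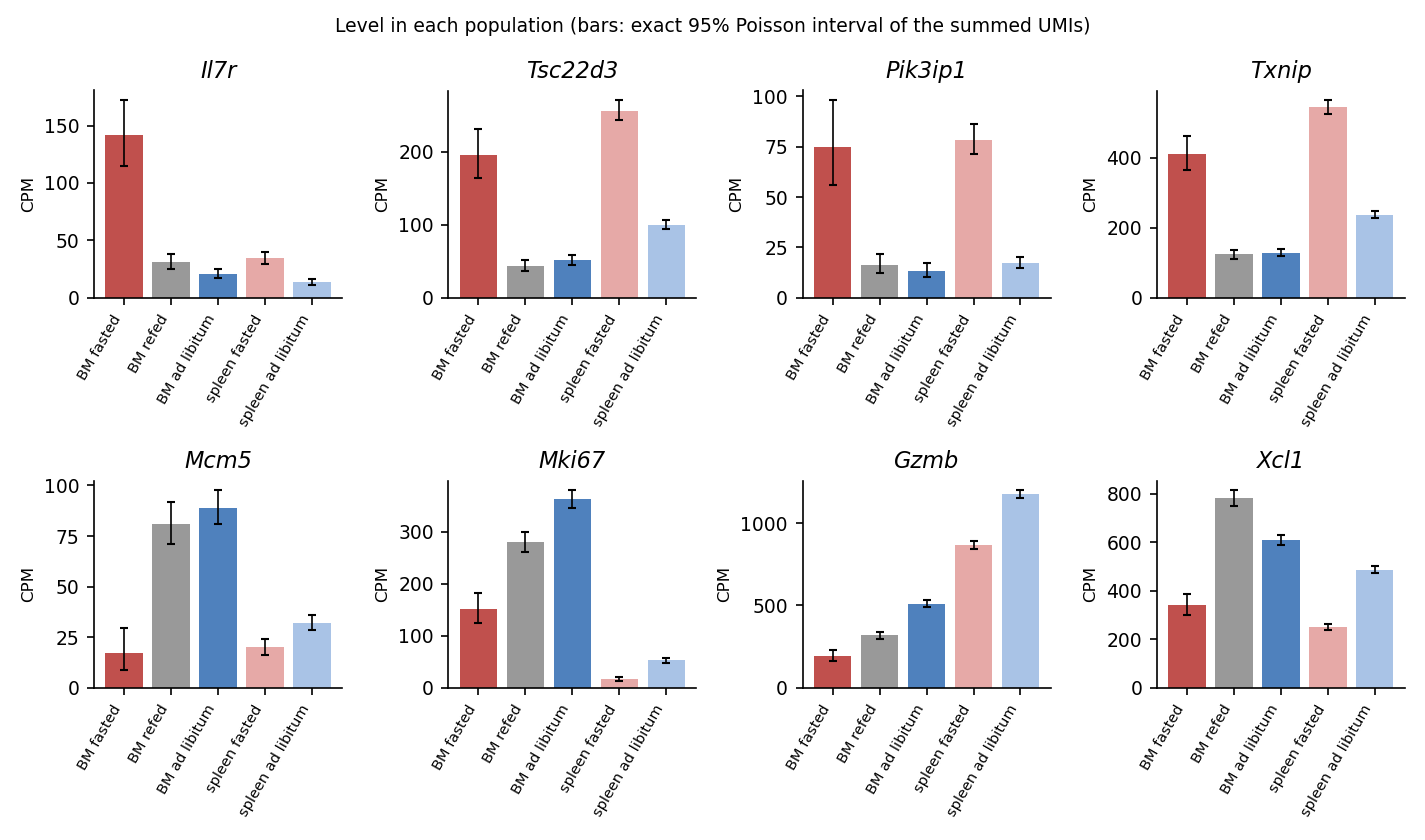
CPM (vertical axes, each from 0) of 8 genes in the bone marrow fasted, refed and ad libitum and the spleen fasted and ad libitum populations, 1 bar a population with its exact 95% Poisson interval. Il7r stands at 141 CPM in fasted bone marrow and at 34.5 CPM or less in the other 4 populations, and Mcm5 at 17.0 CPM in fasted and 88.9 CPM in ad libitum bone marrow.

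Refed bone marrow and the spleen are set beside these values. In refed bone marrow the summed S phase genes had 3001 CPM, against 1297 CPM in fasted and 3178 CPM in ad libitum bone marrow, and the glucocorticoid list summed to 858 CPM in refed, 1795 CPM in fasted and 864 CPM in ad libitum cells. The comparison of refed with ad libitum cells would share its ad libitum cells with the one above, so the levels alone are given. In the spleen, fasted over ad libitum, the list medians were 0.73 for the glucocorticoid response, 0.18 for FOXO and quiescence, 0.21 for cytokine receptors, -0.23 for ribosome biogenesis, -0.35 for S phase and -0.82 for mitosis. Each has the sign of the bone marrow median, and whether the 2 tissues differ was not tested. Pik3ip1 had 78.5 CPM in fasted and 17.4 CPM in ad libitum spleen (log2 ratio 1.90), close to its bone marrow levels, whereas Il7r had 34.5 CPM in fasted and 13.5 CPM in ad libitum spleen (1.10). Bbc3 had 57.9 CPM in fasted and 48.4 CPM in ad libitum spleen (0.24, 0.04 to 0.43).

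The authors' deposited cluster numbers, which cover the whole lane, were spread differently in the fasted and ad libitum populations. Cluster 2 was the largest in both, with 54 of 134 fasted cells (40.3%, exact 95% binomial interval 31.9 to 49.1%) and 189 of 551 ad libitum cells (34.3%, 30.3 to 38.4%). Cluster 7 held 35 fasted cells (26.1%, 18.9 to 34.4%) and 37 ad libitum cells (6.72%, 4.77 to 9.14%). Cluster 10 held 5 fasted cells (3.73%, 1.22 to 8.49%) and 90 ad libitum cells (16.3%, 13.3 to 19.7%). In cluster 5 there were 0 fasted cells, with an interval up to 2.72%, and 25 ad libitum cells (4.54%). The other clusters had overlapping intervals. In refed bone marrow cluster 7 held 28 of 332 cells (8.43%) and cluster 10 held 44 (13.3%).

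Clusters 7 and 10 also differ in RNA content. In cluster 7, genes that collect ribosomal RNA reads made up 8.34% of UMIs, and the median UMIs were 2314 in its fasted and 4583 in its ad libitum cells. Cluster 10 had medians of 14979 UMIs in its fasted and 19907.5 UMIs in its ad libitum cells, and mitosis genes summed to 16692 CPM there against 1750 CPM in cluster 2. Since genes that differ between the populations also define clusters, the shares are not independent of the values above. Without the 5% of cells with most UMIs in each population, cluster 10 held 0.787% of fasted and 12.0% of ad libitum cells. The part that RNA quality has in the cluster 7 share was not tested.

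**Figure D4:**
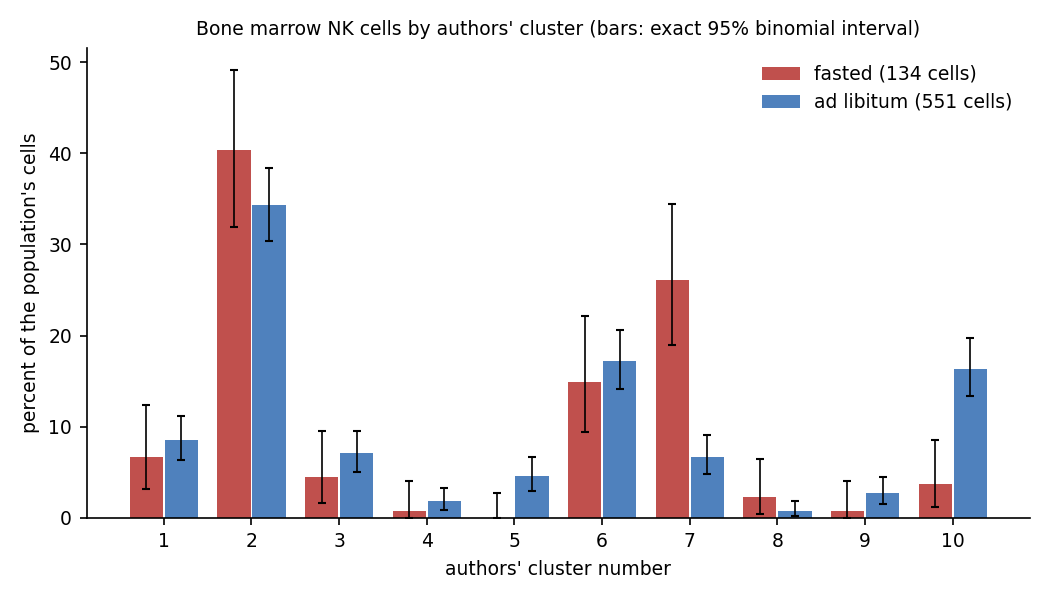
Percent of the 134 fasted and 551 ad libitum bone marrow NK cells (vertical axis) in each of the authors' clusters (horizontal axis), with exact 95% binomial intervals. Cluster 7 holds 26.1% of fasted and 6.72% of ad libitum cells, and cluster 10 holds 3.73% of fasted and 16.3% of ad libitum cells.

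Within single clusters the glucocorticoid medians stayed above 0. Clusters 2, 6 and 7 had at least 20 cells of each population, and their glucocorticoid medians were 1.16, 0.67 and 1.18, against 1.09 over all cells, while the medians of all genes were -0.04, -0.09 and -0.08. The bounds of the glucocorticoid median were 0.48 to 1.71 in cluster 2 and reached across 0 in clusters 6 and 7. In cluster 2 Tsc22d3 had 212 CPM in fasted and 61.3 CPM in ad libitum cells (log2 ratio 1.71, 1.28 to 2.13), and Il7r had 212 CPM in fasted and 42.4 CPM in ad libitum cells (2.19, 1.73 to 2.65). The division lists depended on the cluster. S phase medians were -0.56 in cluster 2, -1.13 in cluster 6 and -1.63 in cluster 7, and mitosis medians were -0.36, -0.80 and -2.23 in clusters 2, 6 and 7. The bounds of both lists in clusters 2 and 6 reached across 0.

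Cytokine and chemokine genes differed in how cluster 2 compared with all cells. Ccl3, an inflammatory chemokine gene next to Ccl4, had 50.9 CPM in fasted and 323 CPM in ad libitum cells of cluster 2 (log2 ratio -2.55, -3.21 to -1.94), against -0.45 (-0.72 to -0.19) over all cells. Ccl4 had 85.7 CPM in fasted and 411 CPM in ad libitum cells of that cluster (-2.20, -2.72 to -1.71), Xcl1 421 CPM in fasted and 1059 CPM in ad libitum cells (-1.32, -1.56 to -1.09), and Ifng 34.8 CPM in fasted and 98.4 CPM in ad libitum cells (-1.38, -2.17 to -0.64). The most abundant chemokine gene, Ccl5, had 12439 CPM in fasted and 10642 CPM in ad libitum cells of cluster 2 (0.22, 0.18 to 0.27), against 0.57 over all cells. In cluster 7 Ccl3 had 165 CPM in fasted and 156 CPM in ad libitum cells (0.08, -0.85 to 0.94). The effector gene Gzma likewise had 2307 CPM in fasted and 4000 CPM in ad libitum cells of cluster 2 (-0.79, -0.90 to -0.69), but 4349.8 CPM in fasted and 4147 CPM in ad libitum cells of cluster 7.

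**Figure D5:**
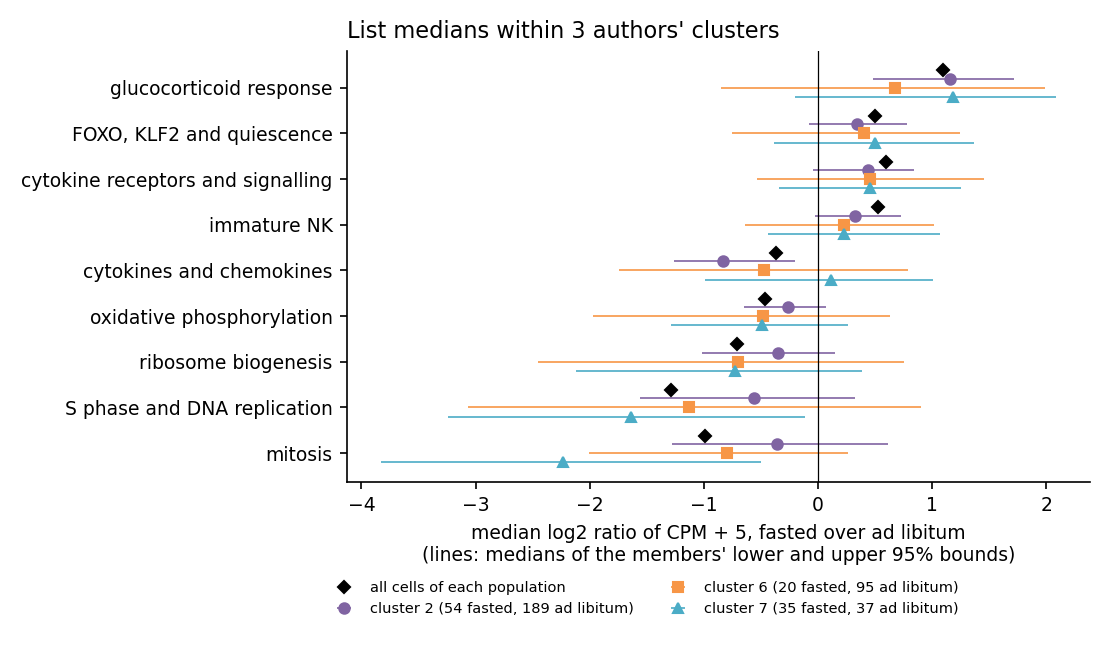
Median log2 ratio of CPM + 5 (fasted over ad libitum, horizontal axis) of 9 gene lists over all cells (diamonds) and within the authors' clusters 2, 6 and 7, with lines from the median of the members' lower bounds to that of their upper bounds. Glucocorticoid medians lie at 1.16, 0.67 and 1.18 in clusters 2, 6 and 7, and mitosis medians at -0.36, -0.80 and -2.23.

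Further lists lay closer to 0. Mitochondrial-encoded genes had a median of 0.05 over 12, which turned to -0.13 with thinned cells. The median was -0.10 over 8 fatty acid oxidation genes, 0.14 over 12 autophagy and lysosome genes, 0.36 over 13 heat shock and dissociation genes and -0.21 over 11 interferon-induced genes. In these lists 0 genes passed 2-fold, beside 1.12% of all genes higher and 3.33% lower, and the lists are too short to set apart from those shares. Of 9 nutrient signalling genes 2 (22.2%, beside 1.12% of all genes) were at least 2-fold higher, with a median of 0.38. Of 2 sterol and fatty acid synthesis genes 1 was at least 2-fold lower, beside 3.33% of all genes.

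The remaining highest genes belonged to no single list. They were Tmem106b, a lysosomal membrane protein (109 CPM in fasted and 28.6 CPM in ad libitum cells, log2 ratio 1.76, 1.37 to 2.14), Hvcn1, a voltage-gated proton channel (1.41), the ubiquitin ligase gene Herc4 (1.25), the transcriptional repressor gene Zbtb20 (1.24), the long noncoding RNA Mirt1 (1.18), Kbtbd11 (1.17) and Thap3 (1.15). With cells thinned, Zbtb20 was at 0.54. Among the lowest, Ppa1, inorganic pyrophosphatase, had 26.9 CPM in fasted and 94.9 CPM in ad libitum cells (-1.65, -2.25 to -1.07).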

How the data were processed

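Cells were sorted, hashtagged and run in 1 lane of a droplet instrument, per the labels' protocols. The authors deposited UMI counts per cell and gene, built with seqc per the labels and on mm10 per the submitters' processing notes, with a hashtag classification, a tag list and cluster numbers. The labels do not say how cells were filtered, classified or clustered. In the matrix there were 13118 cells and 16789 symbols after 11 repeated symbols were summed, and 0 cell barcodes were repeated. The authors' 5606 doublets and 33 unclassified cells were left out, and no further doublet caller was run.

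Cells with at least 3 detected markers of 1 other lineage that made up 0.5% or more of their UMIs were left out. Counts were summed per population and scaled to CPM. Log2 ratios used a pseudocount of 5 CPM and genes that reached 50 CPM in fasted or ad libitum cells, and called means at least 2-fold. The 95% intervals are exact Poisson for levels, exact binomial (Clopper-Pearson) for shares, and the exact conditional binomial for ratios. They cover counting error only. Thinning kept 1500 UMIs per cell and left out 20 fasted and 20 ad libitum cells under that depth. Depth was 707101 fasted and 4960953 ad libitum UMIs. On simulated Poisson counts for 2568 genes with these totals, 95.6% of intervals held the true ratio. Those counts came from the model behind the intervals, so this checks the code and not the spread between cells or mice.

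The members and gene lists were chosen with earlier results of these data known. Named were the 15 highest and 15 lowest log2 ratios whose interval left out a ratio of 1, without unnamed gene models and without genes of haemoglobin, immunoglobulins, T cell receptors, mitochondria and ribosomal proteins. Up to 5 highest and 5 lowest members per list and members of the NK function lists at 50 CPM or more were named besides. Cpt1a, Klrg1, Tmem176b, Itga1, Cxcr6, Cd3e, Trac, Cd6, Trat1, Mcm4, Mcm7, Pcna, Ncl and the promoters printed were chosen after their values were seen. Gene symbols and gene loci came from GENCODE M21, and the promoter windows came from RefSeq on GRCm38.p6. Figures were drawn with matplotlib 3.10.9, statistics computed with scipy 1.17.1, numpy 2.4.6 and pandas 2.3.3 under Python 3.11.15, and TMM factors with edgeR 4.0.16 under R 4.3.3. Some items withheld for evaluation are not reported here.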

Additional observations from a re-analysis of the deposited data

Results flagged for a closer look

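Of 523 list and named genes looked at, 6 had log2 ratios of opposite sign in bone marrow and spleen, with counting intervals that left out 0 in both tissues. The difference between the tissues was not tested, and all of these values are under 2-fold. Cd69, an early activation and retention receptor, had 157 CPM in fasted and 108 CPM in ad libitum bone marrow (0.52, 0.23 to 0.81), and 101 CPM in fasted and 115 CPM in ad libitum spleen (-0.18, -0.33 to -0.04). In bone marrow it was -0.09 with the same weight per cell and -0.59 with thinned cells. Ier2, an immediate early gene, lay at 0.45 in bone marrow and -0.16 in spleen. Pim1, a kinase induced by cytokines, lay at 0.27 in bone marrow and -0.19 in spleen, and Spn, which encodes CD43, at 0.33 in bone marrow and -0.15 in spleen. The ribosomal protein gene Rplp1 lay at 0.095 in bone marrow and -0.03 in spleen, and the mitochondrial gene mt-Nd1 at -0.15 in bone marrow and 0.05 in spleen.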

How the results depend on the processing

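Each alternative changed 1 choice, and 3 of them (cells with at least 3 T cell markers left out, cluster 7 left out, clusters 6, 7 and 9 left out) were added after the data were seen. The count of genes at least 2-fold higher, 32 as reported, was 110 with thinned cells, 71 with totals without ribosomal protein and mitochondrial genes, 13 with a pseudocount of 20 CPM, 66 with a minimum of 20 CPM and 14 with one of 100 CPM. The count at least 2-fold lower, 95 as reported, was 59 when every cell weighed the same, 145 with thinned cells, 46 with equal cluster weights, 53 with a pseudocount of 20 CPM, 189 with a minimum of 20 CPM and 54 with one of 100 CPM. The S phase median was -0.70, -0.74 and -0.69 when cells weighed the same, when they were thinned and when clusters weighed the same. The mitosis median was -0.082 with equal cluster weights, which count 5 fasted cells of cluster 10 as much as any other cluster, and -1.88 without the 5% of cells with most UMIs, where cluster 10 held 0.787% of fasted and 12.0% of ad libitum cells. The glucocorticoid median was 0.64 with a minimum of 20 CPM, 1.64 with one of 100 CPM and 0.54 with none. Reversals were looked for among called genes and among list medians whose bounds left out 0. Reversed were Cxcl10 (-0.037 when every cell weighed the same, -0.20 after thinning, -1.07 without its highest cell, -1.53 without the 5% of cells with most UMIs), the mitochondrial-encoded genes (-0.13 with thinned cells, -0.017 with equal cluster weights), Birc5 of the mitosis list (0.0010 with equal cluster weights) and the cytosolic ribosomal proteins (-0.017 with equal cluster weights). The causes were not tested. Of the 15 lowest genes, those not 2-fold lower were Mcm5, Tipin, Lig1 and Rfc5 with thinned cells, Tyms, Tipin, Lig1 and Hist1h2ae when every cell weighed the same, and Tyms, Asf1b, Rfc5 and Hist1h2ae with equal cluster weights, and all 15 were below 0 under every alternative run. Of the 15 highest, 10 passed 2-fold with a pseudocount of 20 CPM. With TMM factors the all-gene median was -0.11. The 134 fasted cells limit each share. No paired analysis was possible because each population was 1 hashtag and no test was run.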
